A study of Mus musculus with 12 samples.

Results

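Resident macrophages of the mouse dorsal root ganglion (DRG) were followed through 10 genes, Aif1, Csf1r, Cx3cr1, C1qa, C1qb, C1qc, Cd68, Itgam, Ptprc and Mrc1. The genes were taken by symbol, and all 10 had a row among the 24490 gene rows of the deposited expression table. RNA was sequenced from 12 samples of adult male C57Bl/6 mice in 3 groups of 4. An intact sample held whole, snap-frozen ganglia of 1 mouse. An unsorted sample held the cells of 2 mice after digestion with dispase, collagenase and DNAse, and a MACS-sorted sample held the cells of 8 mice after the same digestion, labelling with a biotinylated antibody cocktail against non-neuronal cells and passage through a magnetic exclusion column. No transgene, injury or drug distinguished the groups. The surface proteins that the cocktail binds are not given in the sources used here.

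Macrophages live in the ganglion among the sensory neurons and the satellite glia around them, clear debris, and respond to injury of the peripheral nerve. Their survival depends on the receptor tyrosine kinase encoded by Csf1r, whose ligands are CSF1 and IL-34, and Cx3cr1 encodes the receptor for the neuronal chemokine fractalkine. C1qa, C1qb and C1qc encode the chains of C1q, which starts the classical complement pathway and which tissue macrophages make in quantity.

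The C1q genes lie side by side on the reverse strand of chromosome 4 of mm10, C1qb at chr4:136880145-136886177, C1qc at chr4:136889802-136892914 and C1qa at chr4:136895916-136898844. Promoter sequences of RefSeq (GRCm38.p6) were matched for 8 of the 10 genes, and C1qa and Csf1r had no entry. They are shown because most members fell together between the groups, and because PU.1, the myeloid transcription factor encoded by Spi1, binds sites with the core GAGGAA. These 6 letters were searched on both strands in 300 bases around each transcription start, where 7 of the 8 genes held them, in 7 of their 9 promoters, against 28.3% of 32851 promoters of the same length. The longer form GAGGAAGT, which contains the shorter, was found in 1 of the 8, C1qc, against 3.2% of promoters. Capitals mark the core, written TTCCTC where it lies on the other strand, in 60 bases upstream of the start site, each read 5′ to 3′ on the strand of its gene.
C1qb, chr4:136886201-136886260, reverse strand: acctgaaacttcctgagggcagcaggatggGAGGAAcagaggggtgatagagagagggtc
C1qc, chr4:136893075-136893134, reverse strand: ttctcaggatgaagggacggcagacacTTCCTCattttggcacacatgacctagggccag
Aif1, chr17:35176053-35176112, reverse strand: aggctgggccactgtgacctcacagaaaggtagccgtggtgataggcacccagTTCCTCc
Mrc1, chr2:14229352-14229411, forward strand: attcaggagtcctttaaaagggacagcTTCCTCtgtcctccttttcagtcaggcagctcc
Itgam, chr7:128062580-128062639, forward strand: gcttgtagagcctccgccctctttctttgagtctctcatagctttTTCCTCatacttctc
Cd68, chr11:69666361-69666420, reverse strand: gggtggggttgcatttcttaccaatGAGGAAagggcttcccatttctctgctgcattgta
Ptprc, chr1:138175431-138175490, reverse strand: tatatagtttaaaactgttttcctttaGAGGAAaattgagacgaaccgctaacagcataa
Cx3cr1, chr9:120068297-120068356, reverse strand: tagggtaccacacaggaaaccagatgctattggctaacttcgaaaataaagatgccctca
In these stretches the core begins 7 bases before the start site in Aif1, 15 in Itgam, 30 in C1qb, 35 in Mrc1, 158 in Ptprc, 193 in C1qc and 225 in Cd68. Cx3cr1 is the gene without it in this window. A match of letters is a description and does not show binding.

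Expression was given in FPKM, fragments scaled to transcript length and to the total of the sample, so that genes can be set side by side within a sample. Depth was not part of the values. Estimated from the steps between low values, it was 13600000 to 19400000 fragments a sample. Differences between groups are given on the log2(FPKM + 0.1) scale, on which changes of low genes are understated. They were tested with limma, two-sided, over all genes that averaged 1 FPKM or more in the 8 samples compared, with Benjamini-Hochberg adjustment over those genes. A gene passed at an adjusted p under 0.05, and was called where the log2 ratio of means was also beyond 0.5 and the higher mean above 5 FPKM. Shares of genes tested cover only genes past the filter of 1 FPKM. Counts of groups apart also include genes below it, for which these shares are no exact background. In bulk RNA, fewer macrophages and less RNA per macrophage cannot be told apart.

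In intact DRG the C1q genes stood highest of the 10. C1qb was at 21.1, 10.4, 10.0 and 10.5 FPKM in replicates 1 to 4, a mean of 12.998 ± 5.373 (SD, n = 4). C1qa was at 12.985 ± 5.974 and C1qc at 11.6 ± 5.79 FPKM (SD, n = 4). The means of these 3 genes differed by less than their SD. Csf1r followed at 5.33 ± 1.36 FPKM (SD, n = 4), below C1qc in all 4 samples, and Mrc1, which encodes the mannose receptor CD206, at 3.33 ± 0.602. Aif1, encoding the actin-binding protein IBA1, had 2.68 ± 1.81 and Cd68, a lysosomal membrane protein, 2.44 ± 1.00 FPKM (SD, n = 4). The order of Mrc1, Aif1 and Cd68 was within their spread. Cx3cr1 had 1.57 ± 0.580 FPKM, and Itgam, the CD11b integrin chain, and Ptprc, the CD45 phosphatase carried by all leukocytes, were lowest at 0.953 ± 0.0973 and 0.908 ± 0.158 FPKM (SD, n = 4).

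Only 3 of the 10 genes, the C1q genes, exceeded 5 FPKM in all 4 intact samples. Among the genes with an intact mean above 0, C1qb ranked at percentile 73.2 by this mean and Ptprc at percentile 28.8. Replicate 1 was the highest intact sample for 10 of the 10 genes. It exceeded the mean of the other 3 by 2.98 times for Aif1, 2.31 times for C1qc and 2.19 times for C1qa, but by 1.21 times for Itgam and 1.31 times for Ptprc. The summed level of the 10 genes was 88.5 FPKM in this sample and 42.3 to 45.8 FPKM in the other 3. The same library also had the highest intact sums of a list of 6 fibroblast genes, at 942 against 496 to 588 FPKM, and of 9 T cell and NK cell genes, at 4.33 against 1.66 to 1.74 FPKM.

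**Figure D1:**
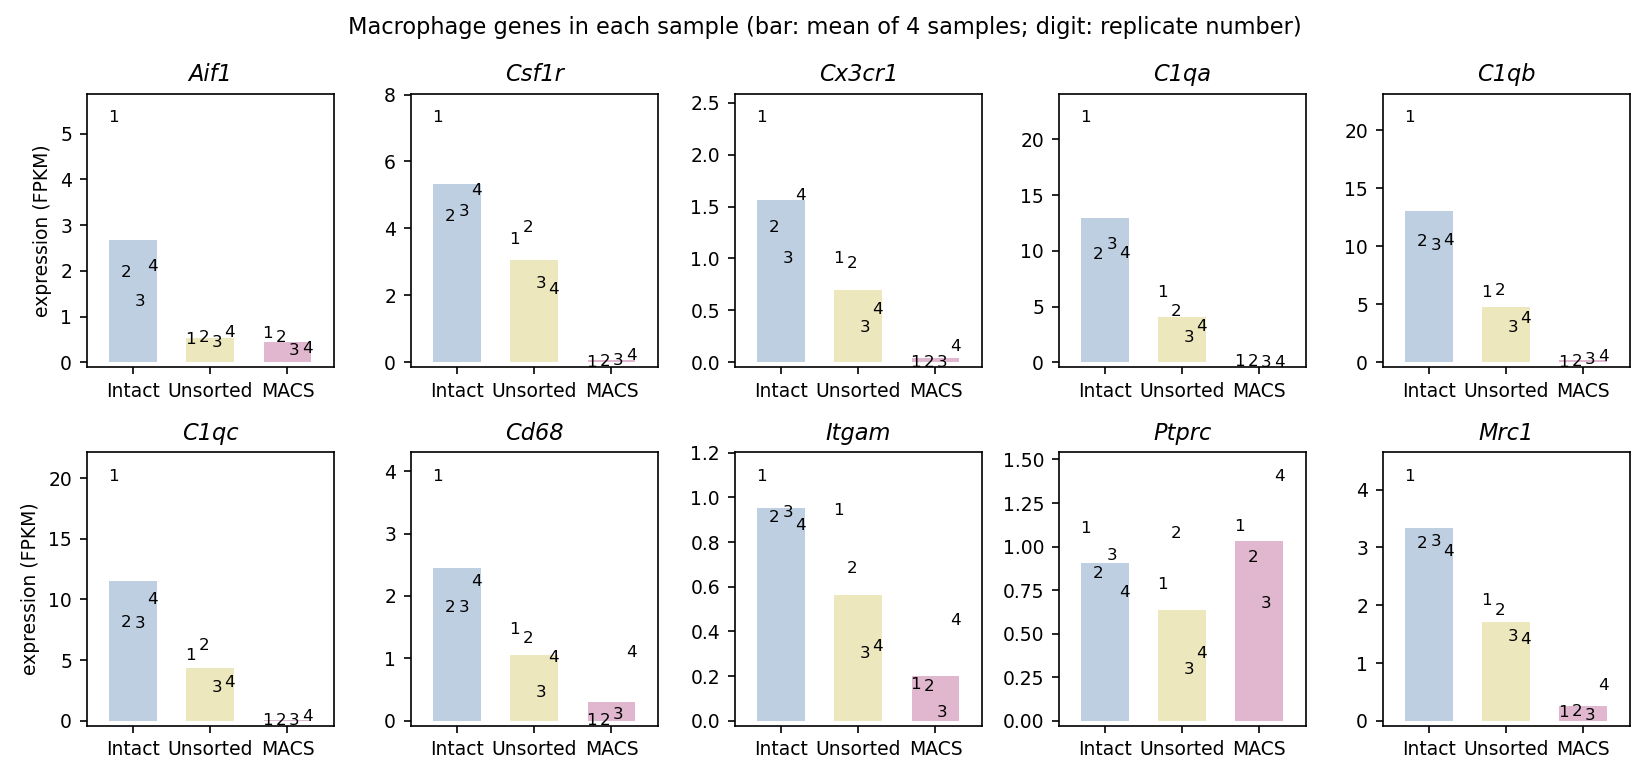
Expression in FPKM (y axis, own scale for each gene, from 0) of the 10 genes in intact, unsorted and MACS-sorted samples. Bars are means of 4 samples and digits are replicate numbers. Intact replicate 1 is the highest intact sample in all 10 panels, and Ptprc is the gene whose MACS-sorted values, 0.671 to 1.40 FPKM, lie as high as the intact ones.

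The first comparison set unsorted, dissociated DRG against intact DRG. Besides the enzymes, dissociation included trituration, filtering and centrifugation, and the number of mice per sample differed too. The parts of these steps cannot be told apart. All 10 genes had lower means in unsorted than in intact DRG, and for 8 of them every unsorted sample lay below every intact one, against 12% of all genes tested with groups apart in this direction. The filter left 8 of the 10 genes to test. Of these, 7 fell, against 7.79% of genes tested that passed downwards (and 14.8% upwards), and 4, Csf1r, C1qa, C1qb and C1qc, were called, against 2.76%. The median difference of the 10 genes was −1.14 and that of all genes tested 0.01 on the log2 scale.

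The C1q transcripts fell together. C1qa was at 6.28, 4.56, 2.22 and 3.18 FPKM in unsorted replicates 1 to 4, all below the lowest intact value of 9.64. Its log2-fold change was −1.66 (standard error 0.35, limma adjusted p = 0.0129), that of C1qb −1.42 (0.30, adjusted p = 0.0125) and that of C1qc −1.36 (0.35, adjusted p = 0.025). The ratio of C1qa to C1qb was 0.926 to 1.06 in intact and 0.733 to 1.04 in unsorted samples, and none of the 3 ratios between chains differed between these groups (exact permutation test, two-sided, n = 4 and 4, lowest p = 0.114, where 0.0286 is the smallest that 4 against 4 allow).

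Aif1 had the largest log2-fold change with the constant of 0.1, but with a constant of 1 it was −1.15, smaller than that of C1qa at −1.45, C1qb at −1.26 and C1qc at −1.19. It had 5.34, 1.95, 1.32 and 2.095 FPKM in intact DRG and 0.503, 0.550, 0.439 and 0.650 FPKM after dissociation, so that the groups were apart. The log2-fold change was −1.95 (standard error 0.37, limma adjusted p = 0.0088). Mrc1 went from 4.23, 3.06, 3.10 and 2.94 to 2.08, 1.91, 1.45 and 1.40 FPKM, a change of −0.93 (standard error 0.17, limma adjusted p = 0.0075), with the smallest standard error of the genes tested here.

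Csf1r fell by less, from 7.30, 4.37, 4.51 and 5.14 to 3.66, 4.03, 2.36 and 2.17 FPKM (−0.80, standard error 0.23, limma adjusted p = 0.0371). Cd68 went from 1.81 to 3.91 FPKM in intact to 0.452 to 1.46 FPKM in unsorted samples (−1.17, standard error 0.36, limma adjusted p = 0.0469). Whether both passed depended on single libraries. Csf1r no longer passed when intact replicate 3 or 4 or unsorted replicate 1, 3 or 4 was left out (adjusted p between 0.0515 and 0.1), and Cd68 passed in 0 of the 8 fits that left out 1 sample (0.0541 to 0.097). Also C1qc was lost without intact replicate 4 or unsorted replicate 3 or 4 (0.0526 to 0.0706). A fit of all 12 samples left 2 of the 8, Aif1 and C1qa, past the threshold.

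Cx3cr1 did not pass (−1.11, standard error 0.36, limma adjusted p = 0.056), although its unsorted values of 0.997, 0.949, 0.333 and 0.504 FPKM lay below the intact ones of 1.00 to 2.35. Itgam had 0.874 to 1.09 FPKM in intact and 0.942, 0.682, 0.303 and 0.331 FPKM in unsorted samples, and the groups overlapped (exact permutation p = 0.114, two-sided). Ptprc had 0.734 to 1.11 and 0.780, 1.08, 0.297 and 0.384 FPKM (exact permutation p = 0.257, two-sided). Neither was tested across genes, since their means were under 1 FPKM.

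Within the unsorted group, replicates 1 and 2 both exceeded replicates 3 and 4 for 9 of the 10 genes. The ratio of the 2 pairs' means was 2.73 for Ptprc, 2.56 for Itgam, 2.33 for Cx3cr1 and 2.01 for C1qa, and 1.40 for Mrc1. Aif1, at a ratio of 0.967, was the exception. The fibroblast list followed the same pattern, with 337 and 328 FPKM in replicates 1 and 2 and 168 and 223 in replicates 3 and 4, while the sums of 8 pan-neuronal genes were 6118, 6119, 6679 and 6143 FPKM. When replicates 1 and 2 were averaged into 1 sample, 6 of the 8 genes tested passed.

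The second comparison set MACS-sorted against unsorted samples, the contrast named in the design of the series, and asked which transcripts were lower once cells bound by the antibodies had been kept on the column. The filter left only 4 of the 10 genes, since the levels were low on both sides. All 4, Csf1r, C1qa, C1qb and C1qc, fell in limma's test, against 27.7% of genes that passed downwards and 18.8% upwards. None was called, because no unsorted mean reached 5 FPKM (0 of 4 called, 4 of 4 with an unadjusted p under 0.05, background 12.5% of genes called lower). Without unsorted replicate 3 or 4 the mean of C1qb exceeded 5 FPKM and this 1 gene was called. With no filter on low values, 7 of the 10 passed downwards, against 24.7% of 17657 genes.

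The C1q genes and Csf1r came close to 0 in sorted samples. C1qa was listed after sorting at 0.0815 FPKM in replicate 1, 0.0704 in replicate 2 and 0 in replicates 3 and 4, a log2-fold change of −4.87 (standard error 0.41, limma adjusted p = 1.30e-05). By the depth estimate, these values stand for 1, 1, 0 and 0 fragments, against 97, 75, 32 and 45 in unsorted samples. C1qc was listed at 0 in replicates 1 to 3 and at 0.313 FPKM in replicate 4 (−4.88, standard error 0.52, limma adjusted p = 5.79e-05), and C1qb at 0, 0.072, 0.199 and 0.465 FPKM (−4.32, standard error 0.51, limma adjusted p = 1.04e-04).

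Csf1r had 0, 0.0169, 0.0617 and 0.201 FPKM, all below the lowest unsorted value of 2.17 (−4.30, standard error 0.42, limma adjusted p = 3.36e-05). About 16 fragments of Csf1r were left over the 4 sorted samples, against 785 over the unsorted ones. The sizes of these changes depend on the constant added before the logarithm: for C1qa they ran from −2.22 with 1 to −7.01 with 0.01. A value of 0 in such a table can be a failed estimate, and is given here as listed.

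Cx3cr1 and Mrc1, too low for the main test, were also below the unsorted samples without overlap, so that 6 of the 10 genes were apart in this direction, against 27.8% of genes tested. Cx3cr1 was listed at 0 in 3 sorted samples and at 0.151 FPKM in replicate 4, with 0.333 to 0.997 in unsorted samples. Mrc1 kept a measurable level, at 0.141, 0.158, 0.0885 and 0.616 FPKM, about 78 fragments in all. For each, the exact permutation p was 0.0286, the smallest possible, and limma without the filter gave adjusted p = 0.00109 and 9.86e-04.

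Cd68 and Itgam overlapped. Cd68 had 0, 0, 0.0935 and 1.09 FPKM in sorted and 0.452 to 1.46 in unsorted samples, so that replicate 4 alone lay in the unsorted range (exact permutation p = 0.0857, two-sided). Itgam had 0.161, 0.153, 0.0379 and 0.449 FPKM against 0.303 to 0.942 (exact permutation p = 0.0857, two-sided), again with replicate 4 inside the range. The exons of Itgam share bases with those of the predicted gene Gm49368 on the same strand in GENCODE M21, a gene without a row in the deposited table.

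Aif1 and Ptprc departed from the rest. Aif1 stood at 0.639, 0.551, 0.254 and 0.297 FPKM after sorting, in and below the unsorted range of 0.439 to 0.650, with a difference of −0.31 (exact permutation p = 0.343, two-sided; limma without the filter, adjusted p = 0.45). Ptprc stood at 1.11, 0.939, 0.671 and 1.40 FPKM, with a mean higher than in unsorted samples by 0.72 on the log2 scale, but the groups overlapped (exact permutation p = 0.171, two-sided; limma without the filter, adjusted p = 0.177). Ptprc was the 1 member with a mean above 0.5 FPKM in sorted samples.

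**Figure D2:**
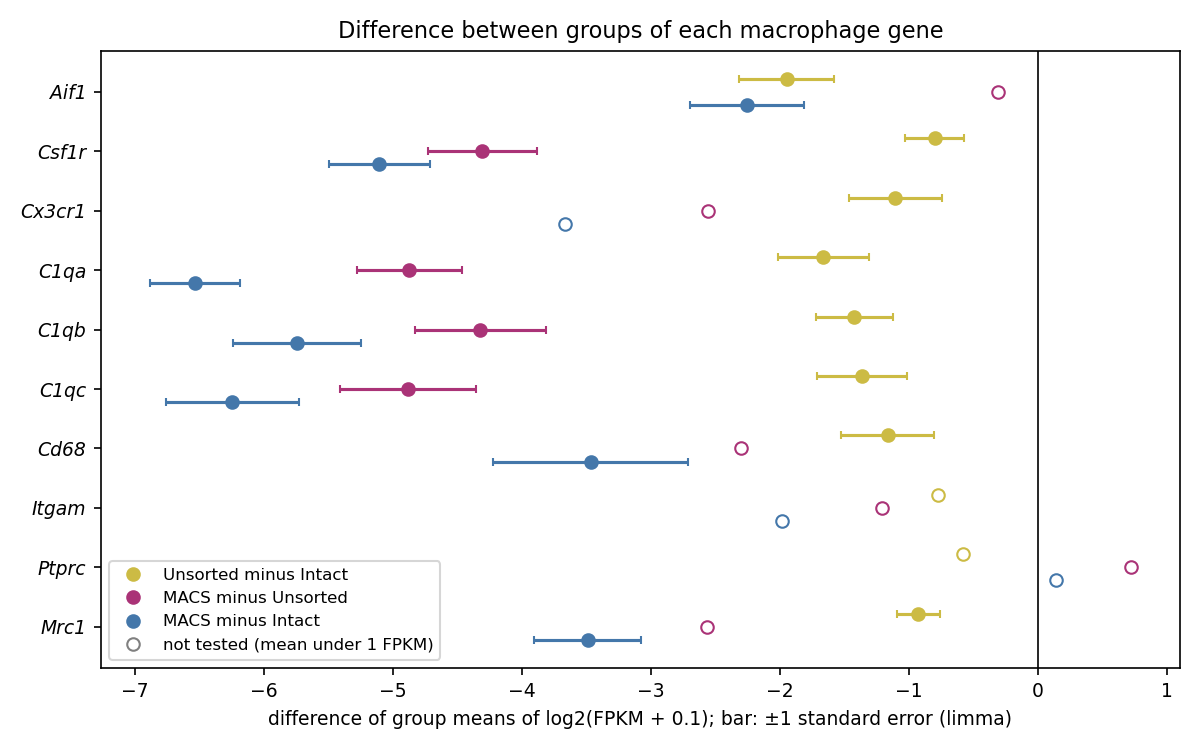
Difference of group means of log2(FPKM + 0.1) (x axis) for the 10 genes in the 3 comparisons. Bars are ±1 standard error from limma, and open circles are genes under the mean of 1 FPKM, with no test. Between MACS-sorted and unsorted samples C1qa lies at −4.87 and Aif1 at −0.31, and Ptprc lies above 0, at 0.72.

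To ask which members moved unlike the others, each gene was set against the median of the other 9 in the same sample, on the log2(FPKM + 0.1) scale. The starting level limits how far a gene can fall on this scale. Unsorted means were 4.74 FPKM for C1qb and 0.564 for Itgam, so a low gene can gain on the others while it falls. Where sorted values are near 0, gains and losses partly follow from these levels, and the p-values cannot separate the 2. Between sorted and unsorted samples, Ptprc gained 4.00 on the others, Aif1 2.87 and Itgam 2.02, while C1qc lost 2.71, C1qa 2.48, Csf1r 2.13 and C1qb 1.98. For each of these 7 of the 10 comparisons the groups were apart, with an exact permutation p of 0.0286 (two-sided, unadjusted, the smallest possible). These 7 kept their direction with constants of 0.01 and 1, but with 0.01 the groups of C1qa overlapped (exact permutation p = 0.143, two-sided, unadjusted). The other 3 changed direction with 0.01: Cx3cr1 turned from 0.35 to −1.36, Cd68 from 0.77 to −0.19 and Mrc1 from −0.01 to 0.80. With 1, Mrc1 was at −0.26, and Cx3cr1 at 0.52 and Cd68 at 0.54 then had groups apart (exact permutation p = 0.0286 for each, unadjusted). Between unsorted and intact samples the shifts were smaller, the widest being −1.02 for Aif1 (exact permutation p = 0.0571) and −0.44 for C1qa (exact permutation p = 0.0286), with 10 genes compared.

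**Figure D3:**
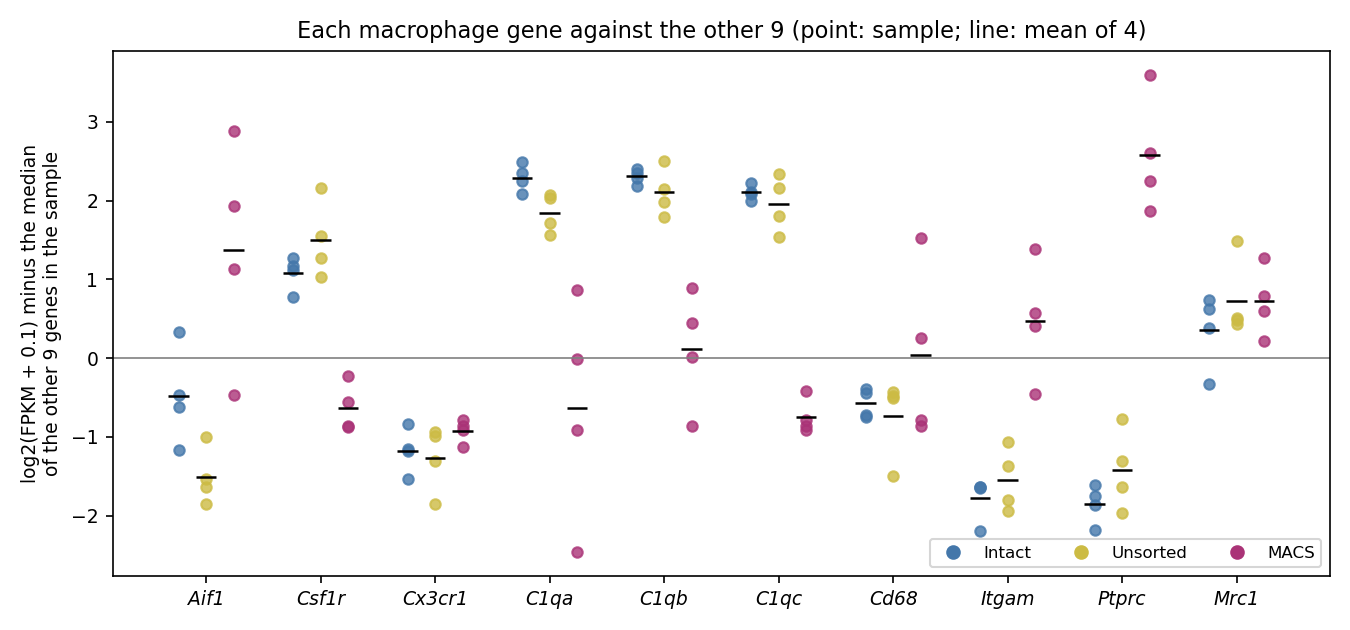
For each gene, log2(FPKM + 0.1) minus the median of the other 9 genes in the same sample (y axis); points are samples, coloured by group, and lines are means of 4. Ptprc moves from a mean of −1.42 in unsorted to 2.58 in MACS-sorted samples, and C1qa from 1.85 to −0.63.

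Sorted replicate 4 had the highest remaining levels. It was the highest sorted sample for 8 of the 10 genes, and the 10 genes summed to 4.98 FPKM in it, against 2.13, 1.96 and 1.41 FPKM in replicates 1 to 3. The sums in unsorted samples were 13.6 to 28.1 FPKM. As a share of all FPKM in a sample, the 10 genes made up 0.0147% to 0.0256% of intact libraries, 0.00441% to 0.00915% of unsorted ones and 0.00046% to 0.00168% of sorted ones. The same library was highest among sorted samples for fibroblast genes, at 32.4 against 7.62 to 13.9 FPKM, for 8 satellite glia genes, at 196 against 90.2 to 129, and for 7 red blood cell genes, at 12683 against 1473 to 9888. The part of these cells in the values of replicate 4 was not tested. Without it, the 4 genes Csf1r, C1qa, C1qb and C1qc still passed.

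Over the whole procedure, from intact to MACS-sorted samples, 9 of the 10 genes were lower without overlap, against 21.9% of genes tested. All 7 genes that could be tested fell, against 20.6% of genes downwards and 14.1% upwards, and 4 were called, against 10.7%. This comparison shares its samples with the others and adds no separate evidence. The log2-fold changes were −6.53 for C1qa, −6.24 for C1qc, −5.74 for C1qb, −5.11 for Csf1r, −3.49 for Mrc1, −3.46 for Cd68 and −2.25 for Aif1, with limma adjusted p-values from 4.70e-06 to 0.00604. Ptprc was the exception, at 0.734 to 1.11 FPKM in intact and 0.671 to 1.40 in sorted samples (difference 0.14, exact permutation p = 0.571, two-sided).

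CD45 is shared by all leukocytes. Unlike Ptprc, whose sorted and unsorted values overlapped, some markers of T and NK cells lay above the unsorted range in sorted samples. None of the B cell list did. The 9 genes of the T cell and NK cell list summed to 3.20, 3.69, 4.35 and 8.68 FPKM in sorted samples, above the 0.594 to 1.91 FPKM of unsorted ones. For 3 of the 9, all sorted samples lay above all unsorted ones, against 18.4% of genes tested. These were Lck, a kinase of the T cell receptor, at 1.27 ± 0.378 against 0.459 ± 0.160 FPKM, Nkg7, a protein of cytotoxic granules, at 1.18 ± 0.636 FPKM against at most 0.260, and Cd8a at 0.179 ± 0.0895 FPKM against at most 0.0182 (SD, n = 4). None of the 9 reached the mean of 1 FPKM for the test. The 5 B cell genes summed to 0.228 to 1.33 FPKM in sorted and 0.576 to 3.62 FPKM in unsorted samples, and 1 of the 5 lay below the unsorted range and 0 above it. The 7 red blood cell genes were also higher in sorted samples, at 1473 to 12683 FPKM against 88.1 to 325 FPKM, and 6 of 6 tested passed upwards. The part of these cells in the Ptprc level was not tested.

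Neutrophil markers, which share Itgam and Ptprc with macrophages, were abundant before the sort. Their 9 genes summed to 43.1 to 144 FPKM in intact, 41.7 to 100 in unsorted and 42.6, 5.80, 1.90 and 11.3 FPKM in sorted samples. S100a9 fell from 23.5 ± 9.36 to 0.361 to 12.7 FPKM (log2-fold change −3.06, standard error 0.91, limma adjusted p = 0.0202). In sorted samples their highest sum was in replicate 1, not in replicate 4.

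The partners of the members were then examined from lists of related genes. The ligands Csf1, Il34 and Cx3cl1 all passed downwards between sorted and unsorted samples, but kept a clear level. Il34 had 10.98 ± 0.377 FPKM in unsorted and 2.55 ± 0.922 in sorted samples (SD, n = 4, log2-fold change −2.13, limma adjusted p = 4.66e-05), and Csf1 3.85 ± 0.155 and 2.43 ± 0.390 (−0.66, limma adjusted p = 0.00341). Cx3cl1, encoding fractalkine, had 2.68 ± 0.242 and 1.70 ± 0.560 FPKM (−0.67, limma adjusted p = 0.0277). With dissociation Cx3cl1 rose by 0.60 (limma adjusted p = 0.0137), whereas its receptor gene Cx3cr1 was at −1.11 and did not pass.

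Of 8 genes for Fc receptors and their signalling, 6 lay below the unsorted range after sorting, against 27.8% of all genes tested. Only Tyrobp, the signalling adaptor DAP12, could be tested and fell from 3.52 ± 0.990 to 0.168 to 2.36 FPKM (−2.72, limma adjusted p = 0.00589). With dissociation 3 of the 4 tested fell, among them Tyrobp (−1.31, limma adjusted p = 0.00752) and Fcgr3 (−1.23, limma adjusted p = 0.0219). Fcgr1 and Fcgr4 were listed at 0 in all 4 sorted samples.

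Among 14 scavenger receptors and lysosomal enzymes, 6 of 9 tested fell with the sort and 0 rose, against 27.7% and 18.8% of all genes. Lyz2, lysozyme of myeloid cells, fell from 15.5 ± 5.86 to at most 1.01 FPKM (−5.29, standard error 0.69, limma adjusted p = 1.85e-04), and Ctss, cathepsin S, from 3.90 ± 1.48 to at most 0.246 FPKM (−4.43, limma adjusted p = 7.50e-05). In contrast, Ctsb had 295 FPKM in unsorted and 290 in sorted samples (−0.03, limma adjusted p = 0.821). Between unsorted and intact DRG the list was mixed. Of 11 tested, 4 fell, like most members, against 7.79% of all genes, and 3 rose, against 14.8%. The 3 that rose, opposite to the members, were Lgmn, Ctsb and Ctsd (0.49, 0.27 and 0.26, limma adjusted p = 0.00525, 0.0178 and 0.0302).

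Among myeloid transcription factors, 1 of 5 tested fell and 1 rose, near the shares of all genes. Spi1, which encodes PU.1, was listed at 0 in all 4 sorted samples and at 0.330 to 0.793 FPKM in unsorted ones, too low for the test. Maf fell from 20.8 ± 2.96 to 1.31 ± 1.14 FPKM (−4.23, limma adjusted p = 7.81e-05) and Runx1, which sensory neurons also express, rose from 15.7 ± 0.668 to 37.1 ± 3.78 FPKM (1.23, limma adjusted p = 3.51e-06; SD, n = 4). Irf5, Cebpa and Cebpb did not pass.

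Of 11 genes of haematopoietic signalling, 1 of 5 tested fell and 1 rose, likewise near the shares of all genes. Laptm5 fell from 2.41 to 1.18 FPKM (−0.90, limma adjusted p = 0.0387) and Coro1a, coronin 1A, rose from 57.3 ± 3.65 to 86.5 ± 12.8 FPKM (0.59, limma adjusted p = 0.00124). Emr1, which encodes the macrophage antigen F4/80, ranged from 0.349 to 1.12 FPKM in unsorted and at most 0.0220 FPKM in sorted samples. Of 6 integrin genes including Itgb2, the partner chain of CD11b, 1, Itgax, lay below the unsorted range. Itgb2 had 0.140 to 0.892 FPKM in sorted and 0.349 to 1.01 FPKM in unsorted samples (exact permutation p = 0.457, two-sided).

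Of 7 other complement genes tested after sorting, 2 fell and 1 rose, shares near the 27.7% and 18.8% of all genes. C4b fell from 3.98 ± 0.444 to at most 0.646 FPKM (−4.15, limma adjusted p = 1.68e-04) and Cd55, a complement inhibitor, rose from 108 ± 7.69 to 208 ± 41.1 FPKM (0.93, limma adjusted p = 5.55e-04). With dissociation 4 of 10 tested fell, against 7.79% of all genes. Cfd, which encodes factor D and is made mainly by fat cells, went from 4.51 to 9.39 FPKM in intact to at most 0.172 FPKM in unsorted samples (−5.26, limma adjusted p = 7.85e-05), and Cfp, properdin, fell by 1.38 (limma adjusted p = 0.00674).

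Genes known from microglia, the macrophages of the central nervous system, were also low after sorting. Of 8, 7 lay below the unsorted range, against 27.8% of all genes tested. Both that could be tested, P2ry12 (−4.37, limma adjusted p = 1.52e-05) and Olfml3 (−1.76, limma adjusted p = 9.12e-06), fell, against 27.7% of genes. Tmem119 was at 0.495 to 1.63 FPKM in unsorted samples and listed at 0 in all sorted ones. With dissociation P2ry12 did not pass (2.32 FPKM in intact and 2.47 in unsorted, 0.07, limma adjusted p = 0.828), whereas Tmem119 (−1.25, limma adjusted p = 0.0401) and Fcrls (−1.35, limma adjusted p = 0.0172) fell.

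Genes of the inflammatory response stayed low. Of 12, 3 were tested in each comparison, and none passed with dissociation. Ccl4, a chemokine, had 0 to 0.114 FPKM in intact and 0.116 to 1.24 FPKM in unsorted samples, too low for the test (exact permutation p = 0.0286, two-sided), and Il10 was listed at 0 in both groups. After sorting, Cxcl10 fell from 3.15 to 0.179 FPKM (−3.64, limma adjusted p = 1.74e-04).

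Loss with dissociation was not common to all non-neuronal lists. The 6 fibroblast genes all fell, against 7.79% of genes tested, to a summed level of 41.2% of intact. This was near the 39.1% of the 10 macrophage genes. In contrast, 5 of 8 satellite glia genes and 6 of 6 endothelial genes rose, against 14.8% of genes tested. The sums of these lists stood at 134% and 207% of intact. The sort then left 12.2% of the unsorted sum of the macrophage genes, 5.87% of the fibroblast sum, 5.43% of the satellite glia sum, 27.5% of the Schwann cell sum and 94.8% of the endothelial sum, of whose 6 genes 0 passed in limma's test. Without sorted replicate 4, the share was 8.57% for the macrophage genes and 3.74% for the fibroblast genes. Endothelial sums ran from 11.4 to 68.1 FPKM in sorted samples. Their share was 118% without sorted replicate 2 and 76.9% without replicate 4. These shares are descriptions and carry no test. The summed level of 5 monocyte genes stood at 51.8% after dissociation and 15.7% after the sort, or 8.21% without sorted replicate 4.

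**Figure D4:**
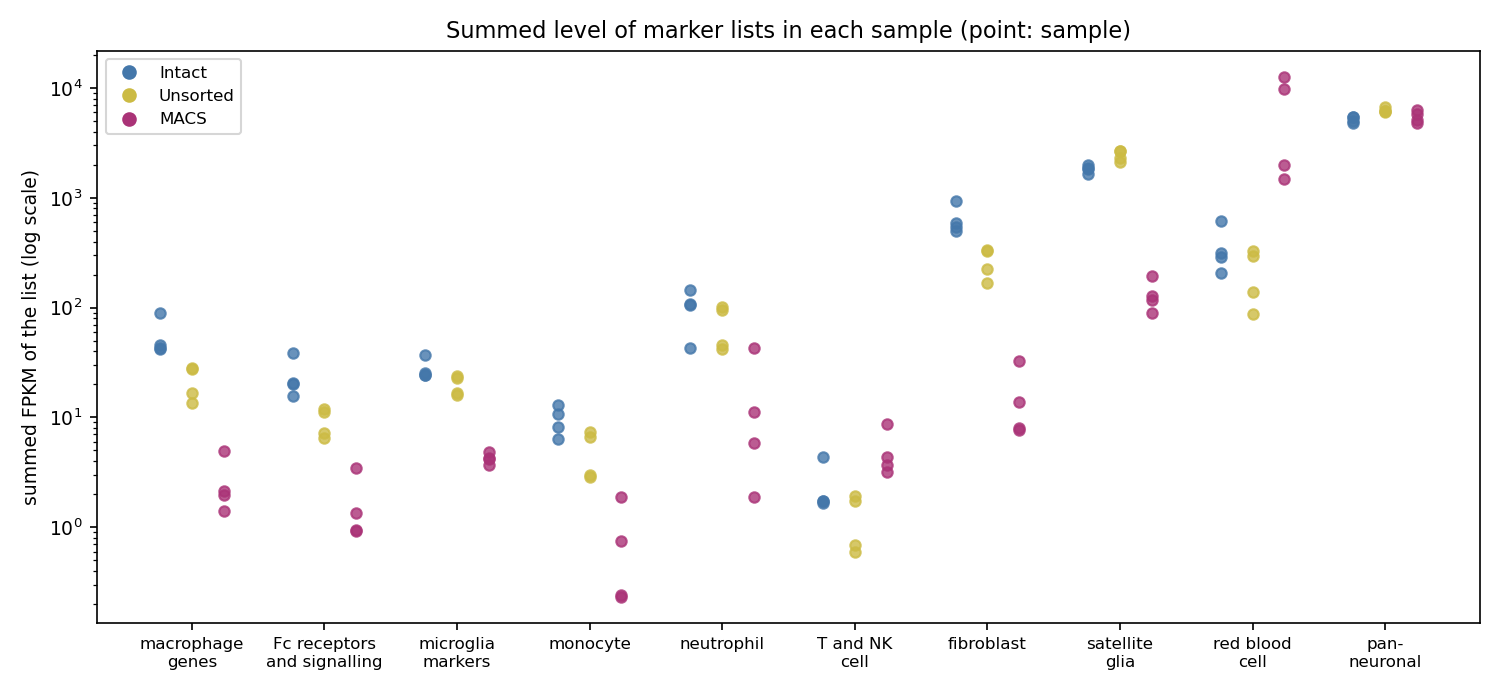
Summed FPKM (y axis, log scale) of 10 marker lists in each sample; points are samples, coloured by group. The macrophage genes step down, with 42.3 to 88.5 FPKM in intact DRG, 13.6 to 28.1 FPKM once dissociated and 1.41 to 4.98 FPKM once sorted, while the T and NK cell list is higher in MACS-sorted than in unsorted samples.

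Genes outside the list were ranked by how closely their profile followed the mean profile of the 10 members, as the root mean square difference of centred log2(FPKM + 0.1) values over the 12 samples. The nearest of 12276 genes was F13a1, coagulation factor XIII chain A, at 0.214, against a median of 1.67 for all. It had 3.41 ± 0.993 FPKM in intact, 1.36 ± 0.619 in unsorted and a mean of 0.125 in sorted samples. Ntn1 (0.239), Colec12 (0.247), Rassf2 (0.261), Scara3 (0.264), Slamf9 (0.283), Lbp (0.293), Anxa1 (0.2999), Fn1 (0.3004) and Ecm2 (0.303) followed. Fn1, which encodes fibronectin, had 18.9 ± 2.68, 7.81 ± 3.37 and 1.37 ± 0.831 FPKM in the 3 groups (SD, n = 4). Of the members themselves, Cx3cr1 lay nearest to the mean of the other 9, at 0.165, followed by Mrc1 at 0.287, and Ptprc lay farthest, at 1.97. The samples of a group share their preparation, and a like profile was read as a description only.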

How the data were processed

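RNA from 12 samples was measured by sequencing of polyA-selected RNA with directional libraries. The authors aligned reads to mm10 with TopHat2, merged lanes with SAMtools and estimated FPKM with Cufflinks 2.1.1, and the deposited table holds 1 FPKM value per gene and sample. Groups followed the sample labels, which give no pairing between groups. Gene starts were shifted to count from 1. Differences were tested by limma 3.58.1 under R 4.3.3, after adding 0.1 and taking log2, letting the prior variance follow expression, and with exact two-sided permutation tests (Python 3.11.15, SciPy 1.17.1). The study used CuffDiff, which needs aligned reads. The test was checked on simulated data. Depth was estimated from the spacing of low FPKM values, with a fragment length of 150 bases assumed. Of 11 low values of members in MACS-sorted samples, 8 came within 0.2 of a whole fragment. This band is wide enough for some values to fall in it by chance, so the fragment counts are rough estimates. Members, lists and tests were chosen with earlier results of these data known. Named genes are the 10 members, the genes with the largest and smallest change or the defining genes of each list, and the 10 genes with the nearest profile. F4/80 was matched as Emr1, and 5 listed symbols (C1s, Adgre1, Ly6g, Chi3l3, Epb42) had no row. Alternatives changed the pseudocount, filter, scaling, model and call criteria, and left out each sample in turn. The paper calls the replicates biological. The p-values rest on the spread between these samples, which held 1 mouse each in the intact, 2 in the unsorted and 8 in the MACS-sorted group. The result of 1 listed gene is not reported here, although the gene remains in the counts.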

Additional observations from a re-analysis of the deposited data

Results flagged for a closer look

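Among 30 sets of 4 values (10 genes in 3 groups), 8 values in 6 genes stood farther from the other 3 of their group than Dixon's critical value for gaps allows at the 95% level. For independent, normally distributed values chance sets apart about 1 in 20 groups. That rate need not hold here, since the genes share libraries and low values reach 0. Cx3cr1 and C1qc were listed at 0 in the other 3 MACS-sorted samples, where any value above 0 is set apart. In intact replicate 1 these were C1qa at 21.9, C1qb at 21.1, C1qc at 20.1 and Mrc1 at 4.23 FPKM. In MACS-sorted replicate 4 they were Cd68 at 1.09, Mrc1 at 0.616, C1qc at 0.313 and Cx3cr1 at 0.151 FPKM, each the highest value of its group. All 8 therefore came from 2 libraries, which were also the highest of their groups in the fibroblast and T cell and NK cell sums.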

How the results depend on the processing

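The 3 comparisons gave 340 single-gene fits under the alternatives, of which 313 kept direction and side of the threshold, 26 lost it, 1 gained it and 0 reversed. All 26 losses were in unsorted against intact DRG. For MACS-sorted against unsorted samples, 4 members were called rather than 0 with the adjusted p alone or with a mean above 1 FPKM, and the number with an adjusted p under 0.05 went from 4 to 7 with no filter and to 0 with a filter at 5 FPKM, which left no member to test. Leaving out 1 sample gave 0 to 1 called and 4 to 5 past the adjusted p. For unsorted against intact DRG, 4 members were called, 7 with the adjusted p alone or a mean above 1 FPKM and 1 in a fit of all 12 samples, where 2 rather than 7 passed the adjusted p. A filter at 5 FPKM left 3 tested, all of which passed. Leaving out 1 sample gave 2 to 4 called and 4 to 6 passing. For MACS-sorted against intact DRG, 7 rather than 4 were called by either looser rule, 3 passed with the filter at 5 FPKM, and leaving out 1 sample gave 3 to 4 called and 7 passing. The number of members set apart from the median of the other 9 after adjustment over the 10 went from 6 to 0 in this comparison with a constant of 0.01. Of these 6, only C1qa changed its unadjusted exact permutation p, to 0.143. Csf1r, C1qb, C1qc, Itgam and Ptprc stayed at 0.0286, the smallest possible. With fewer genes at that value, the adjustment put them above 0.05. Leaving out a sample cannot bring that exact test below 0.0571. Samples with the same replicate number did not deviate together (r between −0.143 and 0.0671). This cannot show whether they were prepared together, and the main fits treated samples as unpaired. A replicate block gave 0, 4 and 4 called and 4, 8 and 7 passing in the 3 comparisons in the order above, with Cx3cr1 gained in unsorted against intact DRG (adjusted p = 0.0306). Depth limits the sorted samples, where 5 of the 6 members with an estimate rest on 2 to 16 fragments over all 4 samples.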
